A study of Mus musculus with 4 samples.

Results

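The genes described here encode the proteases, hydrolases and membrane proteins of the lysosome. They were chosen as a list of 52 gene symbols, and each was found once among the 49315 genes of the count table through its Ensembl gene ID. The list holds 11 genes for cysteine cathepsins and legumain, 4 aspartic and serine proteases, 4 genes for cystatins and the thiol reductase Ifi30, 11 glycosidases, 4 glycosaminoglycan sulfatases, 10 lipid enzymes and lipid-binding cofactors, 7 membrane proteins and progranulin. Enough counts for a test were present for 51 of the 52. The one left out, Ctsw, a cathepsin of T and NK cells, had 6 and 6 counts in the M2 libraries, against 7 and 3 in the M1 libraries.

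The RNA came from mouse bone marrow-derived macrophages and was enriched for poly(A) before sequencing. These cells are grown from marrow cells in medium containing L-cell supernatant, a source of macrophage growth factor. For the 2 M2 libraries the cells were exposed to the cytokines IL-4 and IL-13, each at 10 ng/ml. For the 2 M1 libraries they were exposed to the bacterial endotoxin LPS at 100 ng/ml with interferon gamma at 50 ng/ml. Both exposures lasted 24 hours, from day 7, in serum-free medium. All 4 cultures were Lyz2Cre+, meaning that the marrow carried Cre recombinase driven from the myeloid gene Lyz2, and the labels name no floxed allele, sex or age. The study also used the EGF receptor inhibitor erlotinib, and the labels do not say whether these libraries received it. Without cells left unpolarized, every difference is one between the 2 states, and a gene higher in M2 may have been induced there or repressed in M1.

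Lysosomes digest proteins, glycans and lipids that reach them by endocytosis, phagocytosis and autophagy. Cathepsins cleave proteins and also prepare antigens, glycosidases and sulfatases take glycans apart from their ends, and lipid enzymes work with small activator proteins that lift lipids out of membranes. Many of these genes are known to be transcribed together by TFEB and its relatives TFE3 and MITF, which bind the E-box core CACGTG in promoters.

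Library totals ran from 26806370 to 39506242 counts, and levels are given as CPM scaled with TMM factors unless another unit is named. No label ties a replicate to its own animal or plate, and the p-values therefore reflect the spread of these 4 libraries, technical or not. The polarization markers followed the labels: all 6 M2 markers were higher in M2, with summed levels of 1443 and 1426 CPM in the M2 libraries, against 4.80 and 3.38 CPM in the M1 libraries, and all 6 M1 markers were lower, at 54.9 and 53.3 CPM in the M2 libraries, against 28958 and 31553 CPM in the M1 libraries. Of 10 macrophage markers 2 were higher in M2, 7 were lower and 1 was not called, and their sums were 4574 and 4428 CPM in the M2 libraries, against 9185 and 9169 CPM in the M1 libraries. Lyz2, which has a near-identical copy in Lyz1 that may split its reads, was counted low in all libraries, at 6.51 and 6.88 CPM in the M2 libraries, against 25.3 and 27.3 CPM in the M1 libraries. All 4 cultures also carried Cre driven from Lyz2. The part of the copy or of the Cre allele in the Lyz2 counts was not tested. The 10 T and NK cell markers summed to under 1 CPM in every library. Osteoclast markers summed to 1117 and 1128 CPM in the M2 libraries, against 43.4 and 37.6 CPM in the M1 libraries, with Calcr at 0. Of these M2 sums, 1006 and 1025 CPM came from Atp6v0d2, which had 2.61 and 3.05 CPM in the M1 libraries. Fibroblast and stroma markers summed to 1148 and 1172 CPM in the M2 libraries, against 124 and 116 CPM in the M1 libraries. Dendritic cell markers summed to 789 and 772 CPM in the M2 libraries, against 473 and 496 CPM in the M1 libraries, with 2 of 7 called higher (Itgax 44.2-fold and Zbtb46) and 4 lower (Xcr1, Ccr7, Flt3 and Clec9a). Ccr7 had 1.88 and 1.39 CPM in the M2 libraries, against 423 and 443 CPM in the M1 libraries. Neutrophil markers summed to 12.0 and 15.6 CPM in the M2 libraries, against 9.54 and 10.8 CPM in the M1 libraries, with Ngp, Ltf, Mpo and S100a9 called higher, S100a8 lower and the other 5 of 10 not called or too low to test. B cell markers summed to 15.5 and 17.0 CPM in the M2 libraries, against 9.78 and 10.0 CPM in the M1 libraries (2 of 6 higher, 1 lower), and mast cell and basophil markers to 0.990 and 1.13 CPM in the M2 libraries, against 0.515 and 0.488 CPM in the M1 libraries (1 of 7 higher, 3 at 0). The part of these marker lists in the lysosomal values was not tested. In bulk libraries fewer cells of a type and less RNA per cell cannot be told apart.

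Lysosomal transcripts were more abundant in M2. Together the 52 genes made up 7.12% and 7.18% of all counts in the M2 libraries, against 2.32% and 2.12% in the M1 libraries. On the TMM scale their summed level was 60941 and 61582 CPM in the M2 libraries, against 27478 and 24453 CPM in the M1 libraries, a ratio of 2.36. Psap and Ctsb alone accounted for much of it, and without them the ratio of the sums was 1.76. The sums are described and were not tested.

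In edgeR's quasi-likelihood test at an adjusted p under 0.05, 38 of the 51 tested members were higher in M2, 11 were lower and 2 were not called. Over all 14656 tested genes, 77.2% were called, 39.7% as higher and 37.5% as lower, so the high share of called members says little by itself. The direction differed more from the background: 74.5% of the tested members were higher in M2. The members were chosen with earlier results of these data known, so this contrast is no independent check. The median log2 fold change of the tested members was 1.25, against 0.04 over all tested genes. Called members at least 2-fold higher numbered 27, where the share over all tested genes was 22.5%, and 6 were at least 2-fold lower, where it was 18.2%. Adjusted p-values of called members ran from 6.70e-15 for Cst7 to 0.00983 for Lgmn. The M2 and M1 libraries did not overlap in 50 of the 51 tested members, against 88.5% of all tested genes.

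The scale matters for small changes. With libraries scaled to total counts, the median fold change of all tested genes lay 0.45 log2 units higher than with TMM, and with upper-quartile scaling 0.18 higher. The 6 members with a negative log2 fold change smaller than that shift (Ctsz, Lgmn, Neu1, Lamp2, Laptm4a and Gla) turned positive under total counts, whereas the 6 members lower by at least 2-fold (Ctsc, Ctsh, Cst7, Ppt1, Ppt2 and Npc2) stayed lower under every scaling that was run. With total counts 42 members were called higher and 6 lower, and 71.9% of all calls were higher ones, against 51.4% with TMM.

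**Figure D1:**
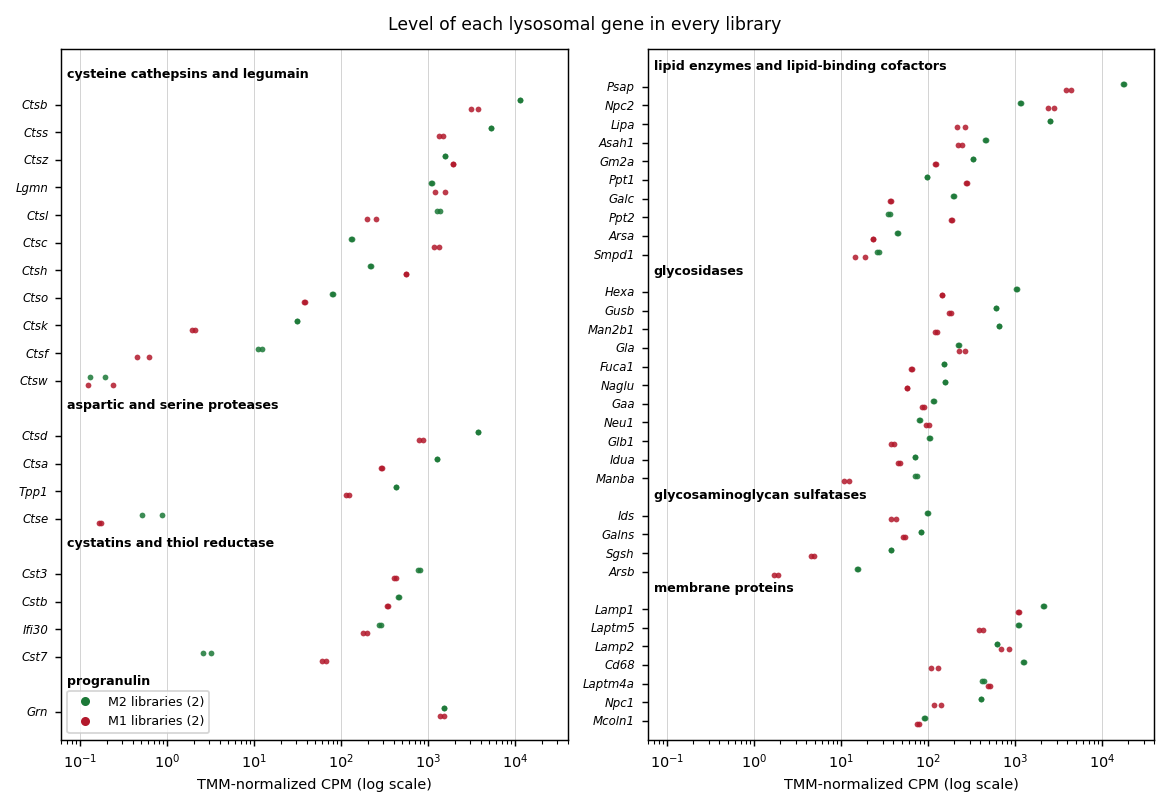
TMM-normalized CPM (log axis) of each of the 52 genes in the 2 M2 libraries (green) and the 2 M1 libraries (red), 1 point per library, genes grouped by class and ordered by level within it. Replicates lie close together, and most M2 points lie to the right of the M1 points, with Ctsc, Ctsh, Cst7, Npc2, Ppt1 and Ppt2 the other way round by at least 2-fold and Ctsz, Lgmn, Neu1, Gla, Lamp2 and Laptm4a by less.

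Part of the list carries the E-box in its promoter. RefSeq promoter windows on GRCm38.p6 (250 bases before to 50 after a gene's start, 300 in all) were matched by symbol for 44 of the 52 members. The core CACGTG, which reads the same on both strands, was in the windows of 14 of these 44 members (31.8%), against 8.09% of 27025 genes with a window and 8.91% of 17492 protein-coding ones. By direction in the expression test it was in 12 of 32 members higher in M2, in 1 of 10 lower members (Lgmn) and in Gla, which was not called. The longer palindrome TCACGTGA, which contains the core, was in 5 members (11.4%) against 1.12% of genes with a window: Ctsa, Ctsd, Ifi30 and Mcoln1, all higher in M2, and Gla. The 10-base palindrome with G before and C after TCACGTGA, the full form of the CLEAR motif, was in 0 of the 44 and in 0.370% of genes with a window. A match is a string of letters and no evidence of binding, and genes may have further starts outside these windows. As many of these genes are already known to be transcribed together by TFEB and its relatives, a share above that of all genes was foreseeable. Motif shares of other genes called higher or lower were not computed, so the split by direction has no background beside it.

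The stretches below lie before the RefSeq start and show the 5 members with TCACGTGA, then Lamp1, which had the most cores (4), and Lgmn, the lower member with a core. They run 5′ to 3′ on the gene's strand, with each CACGTG core in capitals.
Ctsa: acaatgagcaaactgtCACGTGatgcag
Ctsd: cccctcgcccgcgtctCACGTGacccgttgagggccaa
Ifi30: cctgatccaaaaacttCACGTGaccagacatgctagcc
Mcoln1: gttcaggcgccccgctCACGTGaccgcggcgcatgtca
Gla: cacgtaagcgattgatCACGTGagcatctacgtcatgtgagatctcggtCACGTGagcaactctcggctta
Lamp1: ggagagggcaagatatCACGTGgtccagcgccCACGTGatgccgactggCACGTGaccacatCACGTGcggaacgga
Lgmn: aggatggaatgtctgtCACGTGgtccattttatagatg
Their positions on GRCm38.p6 are chr2:164833745-164833772 for Ctsa (plus strand), chr7:142387904-142387941 for Ctsd (minus strand), chr8:70766838-70766875 for Ifi30 (minus strand), chr8:3500458-3500495 for Mcoln1 (plus strand), chrX:134601178-134601248 for Gla (minus strand), chr8:13159084-13159160 for Lamp1 (plus strand) and chr12:102439120-102439157 for Lgmn (minus strand). The members that carry the core had log2 fold changes from 4.40 for Ctsf, 2.98 for Sgsh and 2.55 for Ctsl to -0.14 for Gla and -0.33 for Lgmn. Of those shown, Ctsd was at 2.18, Ctsa at 2.11, Lamp1 at 0.95, Ifi30 at 0.57 and Mcoln1 at 0.24.

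The cysteine proteases were called in both directions. Of the 10 tested, 6 were higher in M2 (Ctsf, Ctsk, Ctsl, Ctss, Ctsb and Ctso) and 4 were lower (Ctsc, Ctsh, Lgmn and Ctsz). That made 60.0% higher and 40.0% lower, against 39.7% and 37.5% over all tested genes. The share of lower ones was thus near that of all genes and says little by itself. The median log2 fold change of the class was 1.39. Its summed level was 20789 and 20928 CPM in the M2 libraries, against 10759 and 9533 CPM in the M1 libraries. Ctss, which degrades the invariant chain of MHC class II, had 5262 and 5191 CPM in the M2 libraries, against 1461 and 1341 CPM in the M1 libraries. Ctsb, a broad-acting cathepsin and the most highly counted of the class, had 11175 and 11277 CPM in the M2 libraries, against 3704 and 3117 CPM in the M1 libraries. Both were clearly separated between the groups, Ctss being 3.73-fold higher (log2 fold change 1.90, SE 0.08, adjusted p = 5.74e-12) and Ctsb 3.29-fold higher (log2 fold change 1.72, SE 0.09, adjusted p = 1.46e-10). Ctsl, an endopeptidase that acts on many substrates, had 1272 and 1347 CPM in the M2 libraries, against 247 and 199 CPM in the M1 libraries, and was 5.86-fold higher. Its M1 libraries were unequal, but both lay far below the M2 libraries. Ctso, a little-studied member, was 2.09-fold higher (adjusted p = 4.38e-10), with 78.6 and 79.9 CPM in the M2 libraries, against 38.6 and 37.3 CPM in the M1 libraries.

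The largest rises of the class were in low-level genes. Ctsk (chr3:95499256-95509362, plus strand, GRCm38) encodes the collagen-degrading cathepsin best known from osteoclasts, and had 30.6 and 30.8 CPM in the M2 libraries, against 2.06 and 1.91 CPM in the M1 libraries. It was 15.4-fold higher in M2 (log2 fold change 3.95, SE 0.11, adjusted p = 7.13e-14). Ctsf, a cathepsin with a long propeptide, had 12.1 and 10.9 CPM in the M2 libraries, against 0.618 and 0.447 CPM in the M1 libraries, which rests on 379 and 501 counts in the M2 libraries, against 18 and 11 in the M1 libraries. It was 21.1-fold higher (adjusted p = 1.04e-11). The osteoclast markers Acp5, Ocstamp, Dcstamp, Atp6v0d2 and Nfatc1 were called higher in M2 too, Calcr was at 0 and Oscar was at most 0.244 CPM. The fibroblast and stroma markers Col1a1, Col1a2, Col3a1, Pdgfra and Pdgfrb were also higher, while Dcn and Lum were lower. The part of either in the Ctsk values was not tested.

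On the M1 side, Ctsc and Ctsh stood out. Ctsc (chr7:88278085-88310888, plus strand), dipeptidyl peptidase I, which activates serine proteases of cytotoxic cells and neutrophils, had 133 and 128 CPM in the M2 libraries, against 1330.0 and 1164 CPM in the M1 libraries. Both M2 libraries lay far below both M1 libraries, and Ctsc was 9.57-fold higher in M1 (log2 fold change -3.26, SE 0.08, adjusted p = 1.48e-14). Ctsh, an aminopeptidase, had 213 and 217 CPM in the M2 libraries, against 548 and 553 CPM in the M1 libraries, and was 2.56-fold higher in M1 (adjusted p = 2.94e-11). Ctsz, a carboxypeptidase, and Lgmn, the asparaginyl endopeptidase that also processes cathepsins, differed by less than 1.5-fold. Ctsz had 1536 and 1541 CPM in the M2 libraries, against 1895 and 1914 CPM in the M1 libraries (log2 fold change -0.31, SE 0.07, adjusted p = 9.60e-04). Lgmn had 1076 and 1104 CPM in the M2 libraries, against 1533 and 1206 CPM in the M1 libraries (log2 fold change -0.33, SE 0.10, adjusted p = 0.00983). Under total-count scaling their log2 fold changes were 0.14 and 0.12 with adjusted p = 0.0679 and 0.233, so neither was called there. The fold change of Lgmn leaned on its M1 libraries, at -0.15 without M1 replicate 1 and -0.49 without M1 replicate 2.

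Because shares within a class do not depend on scaling, they show the change of composition directly. A share also moves when other genes of the class change, so it can differ where the gene's own level hardly does. TPM, which divides counts by merged exon length, was used for shares and for levels of different genes. Of the summed TPM of the cysteine proteases, Ctss made up 51.3% and 50.6% in the M2 libraries, against 26.5% and 26.6% in the M1 libraries. Ctsz had 14.1% and 14.2% in the M2 libraries, against 32.4% and 35.8% in the M1 libraries, so that it was the leading transcript of the class in M1 and the third in M2. Ctsb had 24.4% and 24.7% in the M2 libraries, against 15.1% and 13.9% in the M1 libraries, and Ctsc 0.302% and 0.292% in the M2 libraries, against 5.64% and 5.40% in the M1 libraries. In M2 cells Ctss and Ctsb therefore held most of the class, and in M1 cells Ctsz, Ctss, Lgmn and Ctsb shared it.

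**Figure D2:**
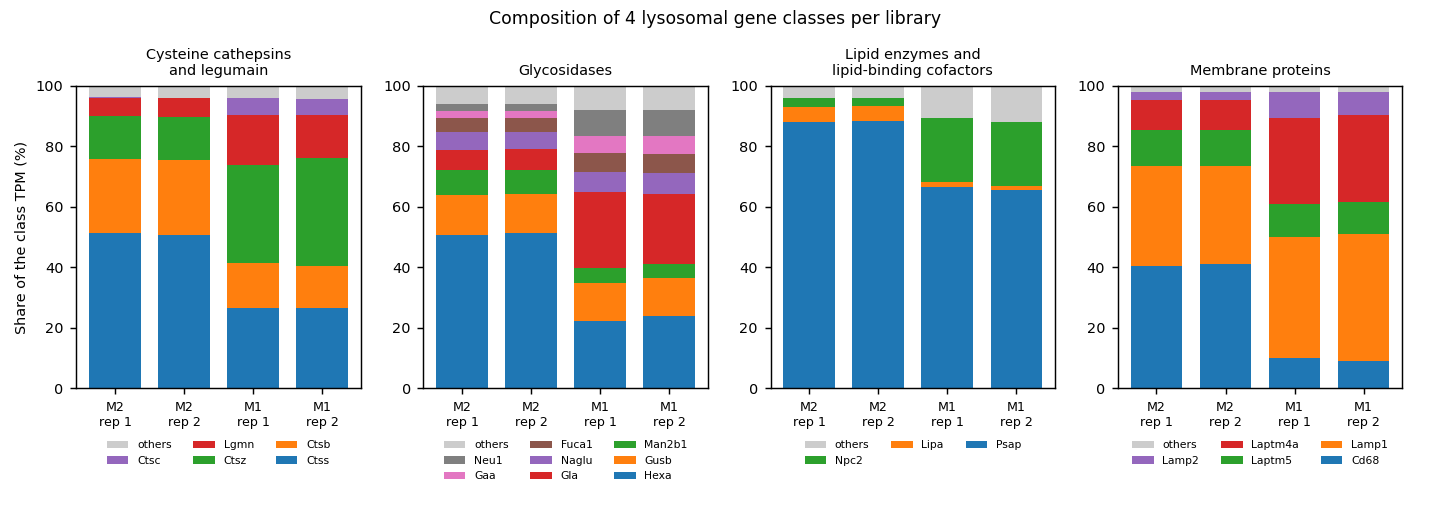
Share of each gene in the summed TPM of its class (percent, stacked to 100) in the M2 replicates and the M1 replicates, for 4 classes; genes under 5% in both groups are drawn together as others. Ctss, Hexa, Psap and Cd68 take larger shares in the M2 bars, and Ctsz, Gla, Npc2 and Laptm4a larger shares in the M1 bars. A larger share need not mean a higher level of the gene itself.

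All 4 aspartic and serine proteases were called higher in M2, as were 39.7% of all tested genes. The 3 well-counted ones, Ctsd, Ctsa and Tpp1, had log2 fold changes from 1.86 to 2.18. The summed level of the class was 5369 and 5401 CPM in the M2 libraries, against 1277 and 1169.7 CPM in the M1 libraries. Ctsd (chr7:142375911-142388038, minus strand), the main aspartic protease of lysosomes, had 3684 and 3723 CPM in the M2 libraries, against 859.9 and 772 CPM in the M1 libraries, and was 4.54-fold higher (log2 fold change 2.18, SE 0.08, adjusted p = 1.26e-12). Ctsa, a serine carboxypeptidase that also protects beta-galactosidase and the sialidase Neu1 in a complex, had 1258 and 1251 CPM in the M2 libraries, against 295 and 286 CPM in the M1 libraries, and was 4.32-fold higher (adjusted p = 3.52e-13). Tpp1, a tripeptidyl peptidase, had 426 and 427 CPM in the M2 libraries, against 123 and 112 CPM in the M1 libraries, and was 3.63-fold higher. Replicates of these 3 genes agreed far more closely than the groups. Ctse, an aspartic protease of some immune and epithelial cells, had only 16 and 40 counts in the M2 libraries, against 5 and 4 in the M1 libraries. Its log2 fold change of 2.07 had an SE of 0.49. Ctse passed the filter on low counts only through the M2 libraries, so its direction adds nothing to that of the class. As a share of the class TPM, Ctsd held 81.8% and 82.0% in the M2 libraries, against 80.9% and 79.9% in the M1 libraries.

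Cystatins, which inhibit cysteine cathepsins, did not move together. Cst7 (chr2:150570415-150578944, plus strand) encodes cystatin F, an inhibitor that acts inside lysosomes and is known to target cathepsin C. Cst7 had 2.55 and 3.17 CPM in the M2 libraries, against 66.1 and 60.1 CPM in the M1 libraries, and was 21.7-fold higher in M1 (log2 fold change -4.44, SE 0.10, adjusted p = 6.70e-15). The gene for this inhibitor and Ctsc were thus both lower in M2. Cst3, the secreted cystatin C, had 759.6 and 800.2 CPM in the M2 libraries, against 421 and 406 CPM in the M1 libraries, and was 1.89-fold higher in M2 (adjusted p = 7.22e-09). Cstb, the cytosolic stefin B, had 442 and 458 CPM in the M2 libraries, against 336 and 340.4 CPM in the M1 libraries, and was 1.33-fold higher (adjusted p = 2.95e-05). Ifi30, the interferon-inducible thiol reductase that opens disulfide bonds of antigens, had 269 and 286 CPM in the M2 libraries, against 196 and 177 CPM in the M1 libraries. It was 1.49-fold higher in M2 (log2 fold change 0.57, SE 0.07, adjusted p = 1.95e-06), although the M1 cells were the ones given interferon gamma.

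Glycosidases were mostly higher in M2 (81.8% higher and 9.09% lower, against 39.7% and 37.5% over all tested genes). Of 11, 9 were higher, Neu1 was lower and Gla was not called, with a median log2 fold change of 1.43 and a summed level of 3261 and 3269 CPM in the M2 libraries, against 1135 and 1061 CPM in the M1 libraries. Hexa (chr9:59539540-59565109, plus strand), the alpha subunit of beta-hexosaminidase, had 1021 and 1040.2 CPM in the M2 libraries, against 145 and 145 CPM in the M1 libraries, a 7.11-fold difference (log2 fold change 2.83, SE 0.07, adjusted p = 1.18e-14). Man2b1 and Manba cleave alpha- and beta-linked mannose from glycoproteins. Man2b1 had 657 and 647 CPM in the M2 libraries, against 128 and 120.1 CPM in the M1 libraries, and was 5.25-fold higher, and Manba had 71.3 and 74.6 CPM in the M2 libraries, against 12.3 and 10.9 CPM in the M1 libraries, and was 6.29-fold higher. Gusb, beta-glucuronidase, had 609 and 601 CPM in the M2 libraries, against 182 and 172 CPM in the M1 libraries, and was 3.41-fold higher. In these 4 genes both M2 libraries exceeded both M1 libraries by over 3-fold. The other 5 were higher by log2 fold changes from 0.41 for the glycogen-degrading Gaa to 1.45 for Naglu, with Glb1 (beta-galactosidase), Fuca1 (fucosidase) and Idua (iduronidase) between.

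Neu1 and Gla did not follow. Neu1, the sialidase, had 78.9 and 80.0 CPM in the M2 libraries, against 102 and 96.1 CPM in the M1 libraries, with a log2 fold change of -0.32 (adjusted p = 2.08e-04) that became 0.13 under total-count scaling (adjusted p = 0.0433). Neu1 thus differed from both genes of its complex, as Ctsa and Glb1 were 4.32-fold and 2.69-fold higher; no test set these genes against each other. Gla, alpha-galactosidase A, had 221 and 226 CPM in the M2 libraries, against 267 and 227 CPM in the M1 libraries (log2 fold change -0.14, SE 0.08, adjusted p = 0.0953). Without M1 replicate 2 it was called lower (-0.26, adjusted p = 1.69e-07), and under total counts higher (0.31, adjusted p = 0.00103). By share of the class TPM, Gla had 6.72% and 6.80% in the M2 libraries, against 25.2% and 22.8% in the M1 libraries, and Hexa 50.7% and 51.2% in the M2 libraries, against 22.4% and 23.9% in the M1 libraries.

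All 4 sulfatases of glycosaminoglycans were higher in M2, as were 39.7% of all tested genes. Arsb, which acts on dermatan and chondroitin sulfate, had 15.1 and 15.5 CPM in the M2 libraries, against 1.72 and 1.91 CPM in the M1 libraries, and was 8.48-fold higher (log2 fold change 3.08, SE 0.13, adjusted p = 9.14e-12). Sgsh, the heparan sulfamidase, had 37.1 and 37.9 CPM in the M2 libraries, against 4.94 and 4.51 CPM in the M1 libraries, and was 7.90-fold higher (log2 fold change 2.98, SE 0.09, adjusted p = 2.14e-13). Galns, which acts on keratan sulfate, and Ids, which acts on heparan and dermatan sulfate, were the more abundant and moved less. Ids had 100.5 and 97.3 CPM in the M2 libraries, against 43.1 and 37.5 CPM in the M1 libraries (2.45-fold), and Galns had 82.6 and 82.6 CPM in the M2 libraries, against 54.4 and 51.2 CPM in the M1 libraries (1.56-fold). Sgsh shares 21.6% of its exon bases with Card14 on the opposite strand, and the library kit does not mark strand. Card14 had at most 0.479 CPM in any library.

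**Figure D3:**
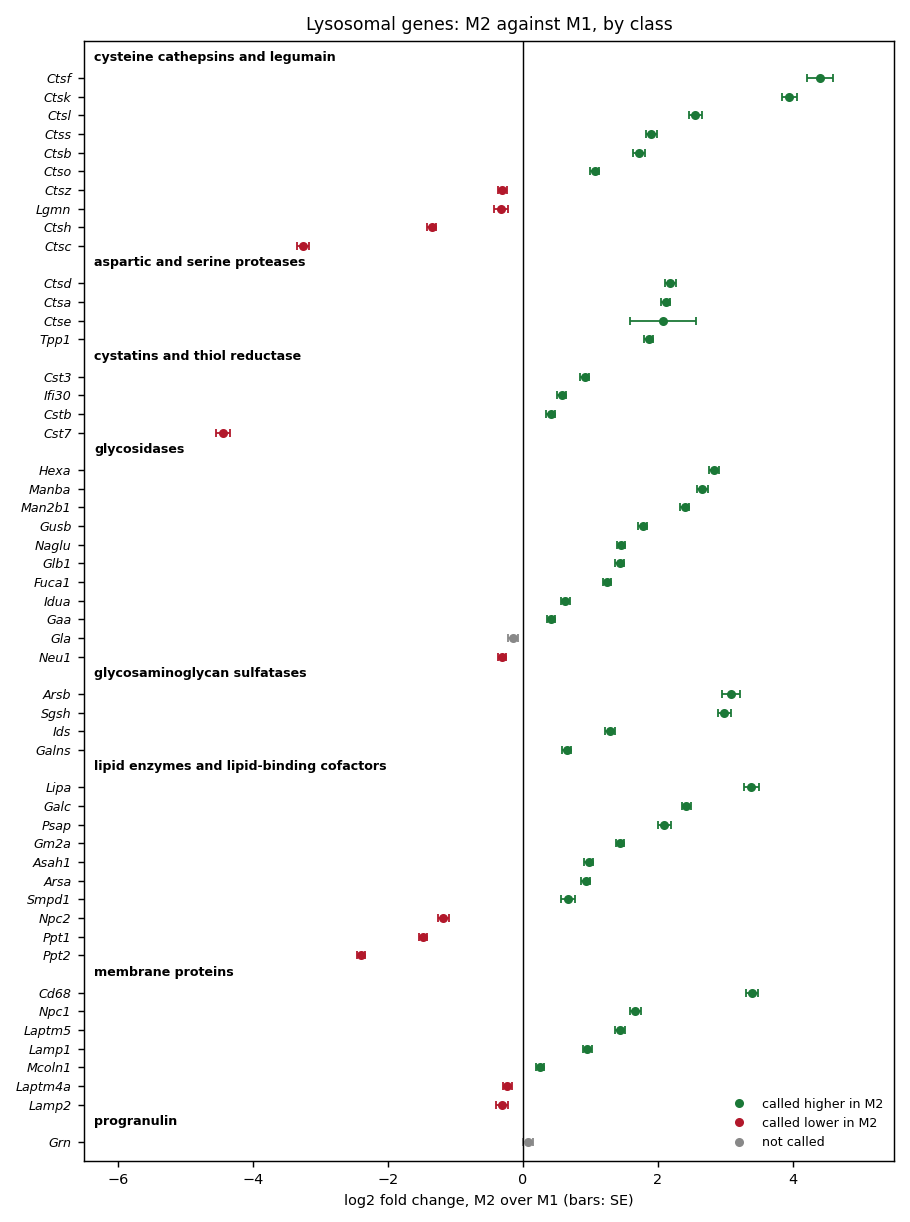
Log2 fold change of M2 over M1 for the 51 tested genes by class, with bars for the SE (2 libraries per group); green is called higher in M2, red lower, grey not called. The rises reach 4.40 for Ctsf, and the falls reach -4.44 for Cst7 and -3.26 for Ctsc.

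The lipid class held both the most abundant transcript and 3 clear falls. Psap (chr10:60277627-60302597, plus strand), the precursor of the saposins that present sphingolipids to their hydrolases, had 17450.3 and 17842 CPM in the M2 libraries, against 4454 and 3813 CPM in the M1 libraries, and alone made up 2.04% and 2.08% of all counts in the M2 libraries and 0.377% and 0.330% in the M1 libraries. It was 4.27-fold higher (log2 fold change 2.09, SE 0.09, adjusted p = 1.18e-11). Lipa (chr19:34492318-34527474, minus strand), the acid lipase that frees cholesterol and fatty acids from lipoprotein lipids, had 2522 and 2506 CPM in the M2 libraries, against 269 and 213 CPM in the M1 libraries. That was a 10.4-fold difference (log2 fold change 3.38, SE 0.11, adjusted p = 8.52e-12), with the M1 libraries unequal. Galc, which cleaves galactosylceramide, had 196 and 199 CPM in the M2 libraries, against 36.4 and 37.5 CPM in the M1 libraries, and was 5.34-fold higher. Gm2a, the activator that hands ganglioside GM2 to hexosaminidase, had 329.7 and 330.5 CPM in the M2 libraries, against 122 and 122 CPM in the M1 libraries, and was 2.71-fold higher, the same direction as Hexa. Asah1 (acid ceramidase), Arsa (which cleaves sulfatide) and Smpd1 (acid sphingomyelinase) were higher by 0.97, 0.93 and 0.66 log2 units.

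The 3 lipid genes lower in M2 were Ppt2, Ppt1 and Npc2. Of the lipid class 70.0% were higher and 30.0% lower, against 39.7% and 37.5% over all tested genes. Ppt1 and Ppt2 are thioesterases that remove fatty acids bound through sulfur. Ppt2 had 36.5 and 34.9 CPM in the M2 libraries, against 185 and 191 CPM in the M1 libraries, and was 5.27-fold higher in M1 (log2 fold change -2.40, SE 0.06, adjusted p = 2.66e-14). Ppt1 had 98.2 and 98.5 CPM in the M2 libraries, against 272 and 278 CPM in the M1 libraries, and was 2.79-fold higher in M1 (adjusted p = 5.76e-12). Npc2 carries cholesterol from the lysosome lumen to the membrane protein Npc1. Npc2 had 1158 and 1140.3 CPM in the M2 libraries, against 2789 and 2416 CPM in the M1 libraries, and was 2.27-fold higher in M1 (log2 fold change -1.18, SE 0.08, adjusted p = 2.96e-09), while Npc1 went the other way. As a share of the class TPM, Npc2 had 2.94% and 2.85% in the M2 libraries, against 21.0% and 20.9% in the M1 libraries, and Psap 87.9% and 88.2% in the M2 libraries, against 66.6% and 65.5% in the M1 libraries. Ppt2 shares 36.6% of its exon bases with Gm20460 on the same strand, which was counted at 0.0217 CPM at most.

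Among membrane proteins, 5 of 7 were higher in M2 (71.4%) and 2 were lower (28.6%), against 39.7% and 37.5% over all tested genes. Their summed levels were 5987 and 6025 CPM in the M2 libraries, against 3248 and 2939.6 CPM in the M1 libraries. Cd68 (chr11:69664213-69666153, minus strand), a heavily glycosylated protein of macrophage lysosomes often used as a macrophage marker, had 1225 and 1261 CPM in the M2 libraries, against 129.8 and 107 CPM in the M1 libraries. Its difference was 10.5-fold (log2 fold change 3.39, SE 0.09, adjusted p = 1.42e-13). Npc1, the cholesterol exporter, had 409 and 408 CPM in the M2 libraries, against 141 and 117 CPM in the M1 libraries, and was 3.17-fold higher (adjusted p = 1.68e-10). Laptm5, a lysosomal protein of blood cells, had 1103 and 1087 CPM in the M2 libraries, against 425 and 381 CPM in the M1 libraries, and was 2.72-fold higher. Both LAMP genes encode the abundant glycoproteins that line the lysosome membrane, and with TMM scaling they moved in opposite directions. Lamp1 had 2123 and 2127 CPM in the M2 libraries, against 1114 and 1083 CPM in the M1 libraries, and was 1.93-fold higher (adjusted p = 7.29e-09), whereas Lamp2 had 616 and 613 CPM in the M2 libraries, against 843 and 683 CPM in the M1 libraries (log2 fold change -0.31, SE 0.09, adjusted p = 0.00659).

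Lamp2 and Laptm4a, a relative of Laptm5, were lower by small amounts that depended on the scale. Laptm4a had 419.9 and 439 CPM in the M2 libraries, against 521 and 490.4 CPM in the M1 libraries (log2 fold change -0.24, SE 0.07, adjusted p = 0.00502), and was not called when M2 replicate 1 (adjusted p = 0.157) or M2 replicate 2 (adjusted p = 0.0532) was left out. Lamp2 was at -0.16 without M1 replicate 1. Under total counts Lamp2 was at 0.14 (adjusted p = 0.140) and Laptm4a at 0.21 (adjusted p = 0.00619). Mcoln1, the lysosomal calcium channel TRPML1, was 0.24 log2 units higher (adjusted p = 0.00158), with 91.2 and 90.7 CPM in the M2 libraries, against 75.3 and 78.3 CPM in the M1 libraries. In share of the class TPM, Cd68 had 40.5% and 41.0% in the M2 libraries, against 9.97% and 8.90% in the M1 libraries, and Laptm4a 9.83% and 10.1% in the M2 libraries, against 28.4% and 28.8% in the M1 libraries. Progranulin, whose gene Grn encodes a secreted and lysosomal glycoprotein, had 1514 and 1496 CPM in the M2 libraries, against 1521 and 1344 CPM in the M1 libraries. Its groups overlapped and it was not called (log2 fold change 0.07, SE 0.08, adjusted p = 0.406), but under total counts it was called higher (0.52, adjusted p = 1.01e-05), as it was without M1 replicate 1 (0.16, adjusted p = 0.00146).

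Compared per length within each group, Psap led in both, with 24350.1 ± 147 TPM in M2 and 4045 ± 445 TPM in M1 (SD, n = 2 each). In M2 it was followed by Ctss (14575 ± 282 TPM), Ctsb (7025 ± 22.8 TPM), Ctsd (5965 ± 13.8 TPM), Ctsz (4044 ± 29.5 TPM) and Cd68 (3744 ± 39.1 TPM). In M1 it was followed by Ctsz (3549 ± 24.4 TPM), Ctss (2769 ± 169 TPM), Lgmn (1583 ± 268 TPM), Ctsb (1514 ± 185 TPM) and Cstb (1506 ± 13.3 TPM). The neighbours Lgmn, Ctsb and Cstb in M1 did not differ beyond their spread. Ctsd held rank 4 in M2 and rank 10 in M1, and Cd68 rank 6 and rank 17. Dividing by the longest transcript in place of merged exons changed the order in M1: Npc2 moved to rank 4 from 7, Lgmn to rank 6, Cstb to rank 8, Ctsd to rank 12 and Cd68 to rank 20. The first 7 ranks in M2 were the same by either length.

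Other genes listed as lysosomal, from lists that do not include the members, were also called higher more often than lower. The members and these lists were chosen with earlier results of these data known, so neither is an independent check of the other. Whether every listed product resides in the lysosome was not examined. Of 32 genes tested from the list of further hydrolases, 19 were higher in M2, 9 lower and 4 not called, with a median log2 fold change of 0.63. That made 59.4% higher and 28.1% lower, against 39.7% and 37.5% over all tested genes, of which 77.2% were called. Among them Pla2g15, a lysosomal phospholipase, had 433 and 433 CPM in the M2 libraries, against 53.1 and 46.1 CPM in the M1 libraries (8.72-fold), and Acp5, an acid phosphatase of osteoclasts and macrophages, had 9.64 and 8.14 CPM in the M2 libraries, against 0.927 and 0.773 CPM in the M1 libraries (10.3-fold). In the other direction, Smpdl3b, a sphingomyelinase-like protein, had 1.53 and 1.87 CPM in the M2 libraries, against 143 and 159.9 CPM in the M1 libraries, and Plbd1, a phospholipase B-like protein, 5.04 and 4.45 CPM in the M2 libraries, against 387 and 377 CPM in the M1 libraries. These were 87.5-fold and 81.1-fold higher in M1, more than any member. Rnaset2b was 6.09-fold higher in M1, but it and Rnaset2a are near-identical copies that can share reads, so the split between them is uncertain.

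Of 30 further membrane proteins tested, 21 were higher, 7 lower and 2 not called (median 0.60). Higher calls made up 70.0% and lower ones 23.3%, against 39.7% and 37.5% over all tested genes. Gpnmb, a glycoprotein of lysosomes and melanosomes, had 7596 and 7681 CPM in the M2 libraries, against 657 and 529.8 CPM in the M1 libraries, and was 12.9-fold higher. The tetraspanin Cd63 had 1638 and 1726 CPM in the M2 libraries, against 240.3 and 224 CPM in the M1 libraries (7.25-fold), and the channel Tpcn1 had 83.2 and 88.7 CPM in the M2 libraries, against 9.51 and 10.2 CPM in the M1 libraries (8.72-fold). The lower ones were led by Slc15a3, a transporter of histidine and peptides, with 389.6 and 392 CPM in the M2 libraries, against 1828 and 1755 CPM in the M1 libraries. Clcn7, the chloride-proton exchanger, and Mfsd8 were lower too, with log2 fold changes of -0.98 and -0.87.

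Among genes that tag and route lysosomal enzymes, 15 of 26 tested were higher, 8 lower and 3 not called (median 0.27). Higher calls made up 57.7% and lower ones 30.8%, against 39.7% and 37.5% over all tested genes. Under total-count scaling 19 of these sorting genes were higher and 2 lower, so most of the lower calls depended on the scaling. M6pr, the small mannose 6-phosphate receptor, had 369 and 369 CPM in the M2 libraries, against 1240.2 and 1205 CPM in the M1 libraries, and was 3.31-fold higher in M1 (adjusted p = 3.53e-12), while the large receptor Igf2r was 1.69-fold higher in M2. Sort1 and Sorl1, sorting receptors of one family, moved in opposite directions. Sort1, sortilin, had 86.3 and 82.0 CPM in the M2 libraries, against 1.17 and 1.22 CPM in the M1 libraries, and was 70.3-fold higher in M2 (log2 fold change 6.14, SE 0.11, adjusted p = 2.41e-16). Sorl1 had 21.9 and 18.3 CPM in the M2 libraries, against 96.9 and 85.3 CPM in the M1 libraries, and was 4.56-fold higher in M1. The adaptors Gga2 and Ap1s2 were 6.76-fold and 2.33-fold higher in M2, and Ap1g1 was lower (log2 fold change -0.55). Igf2r was named after its values were seen.

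Regulators of lysosome biogenesis were mostly on the M2 side: 12 of 19 tested were higher, 5 lower and 2 not called (median 0.56). Higher calls made up 63.2% and lower ones 26.3%, against 39.7% and 37.5% over all tested genes. All 4 genes of the MiT family of transcription factors were higher. Tfeb had 96.5 and 103 CPM in the M2 libraries, against 13.9 and 12.7 CPM in the M1 libraries, and was 7.49-fold higher (log2 fold change 2.90, SE 0.08, adjusted p = 2.09e-14), and Tfec had 26.1 and 26.4 CPM in the M2 libraries, against 5.80 and 5.21 CPM in the M1 libraries (4.76-fold). Mitf was 2.88-fold and Tfe3 1.22-fold higher. Rragd, a Rag GTPase that links amino acid supply to mTORC1 at the lysosome, had 21.2 and 20.4 CPM in the M2 libraries, against 1.30 and 1.99 CPM in the M1 libraries, and was 12.8-fold higher. The lower ones had small differences. Mtor had 42.0 and 40.0 CPM in the M2 libraries, against 63.9 and 67.3 CPM in the M1 libraries, and Rraga had 58.7 and 63.6 CPM in the M2 libraries, against 72.1 and 69.3 CPM in the M1 libraries. Their log2 fold changes were -0.68 and -0.21, the second within the shift that total-count scaling makes. The 5 that were lower became 2 under total-count or upper-quartile scaling, without M2 replicate 1 or without the filter on low counts, and 3 without M2 replicate 2. Mitf and Tfe3 were named after their values were seen.

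**Figure D4:**
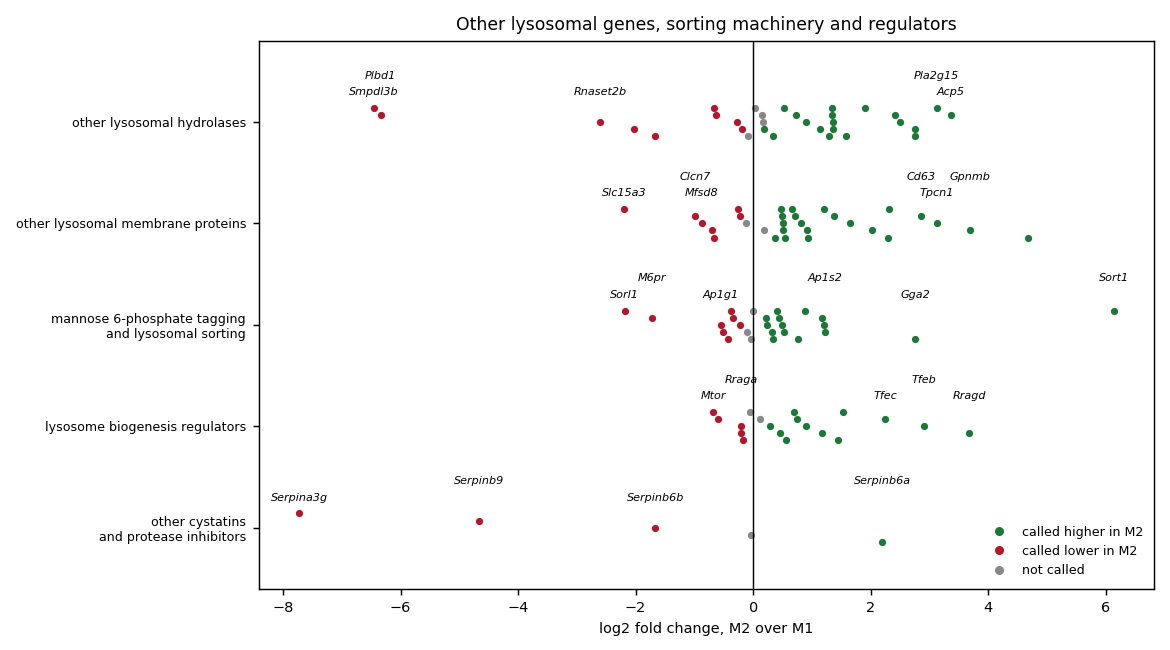
Log2 fold change of M2 over M1 for the tested genes of 5 further lists, 1 point per gene (green called higher in M2, red lower, grey not called), points offset vertically for legibility. Labels name genes given in the text; Sort1 lies furthest right at 6.14 and Serpina3g furthest left at -7.72.

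Other inhibitors of proteases were largely undetected or on the M1 side. Of 16 cystatin, serpin and related genes listed, 5 could be tested, and the rest, most of them stefin genes, had at most 0.434 CPM in any library. Of the 5 tested, 3 were lower in M2, 1 higher and 1 not called. Over all tested genes 37.5% were lower and 39.7% higher. Serpina3g, a serpin that inhibits cathepsins, had 7.50 and 6.88 CPM in the M2 libraries, against 1579 and 1449.9 CPM in the M1 libraries, and was 211-fold higher in M1 (log2 fold change -7.72, SE 0.10, adjusted p = 1.49e-17). Serpinb9, the inhibitor of granzyme B, had 26.2 and 24.8 CPM in the M2 libraries, against 668 and 627 CPM in the M1 libraries, and was 25.4-fold higher in M1, and Serpinb6b was 3.17-fold higher there. Serpinb6a was 4.60-fold higher in M2. With Cst7, the M1 libraries thus held more of 4 inhibitor transcripts and the M2 libraries more of Serpinb6a, Cst3 and Cstb. Serpina3g and Serpinb6 belong to clusters of similar genes, among which reads may be divided.

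The library kit named in the labels does not mark strand, and 17 members share exon bases with another annotated gene, 14 of them on the opposite strand and 3 on the same. Beside Ppt2 and Sgsh the widest overlaps were Ctsd with Gm49369 (34.4% of its exon bases, same strand, at most 0.137 CPM) and Arsb with Gm26527 (32.3%, 0 CPM in every library). Ctsb shares 12.8% with Fdft1 and Hexa 12.8% with Tmem202, at most 21.8 and 12.2 CPM. Ctsa shares 10.5% with Pltp, a phospholipid transfer protein gene that was itself higher in M2, with 492 and 487 CPM in the M2 libraries, against 53.0 and 44.2 CPM in the M1 libraries. How reads on shared bases were assigned was not examined, so a low level of the neighbour cannot show how far an overlap alters a member's count. The part of these overlaps in the values was not tested.

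The M1 libraries were less alike than the M2 libraries in these genes. Of the 51 tested members, 11 were higher in M1 replicate 2 than in replicate 1, with a median difference of -0.09 log2 units, against -0.01 over all tested genes. The widest gaps were in Smpd1 (-0.36), Lgmn (-0.35) and Lipa (-0.34). For the M2 pair the median was 0.00, and 31 of the 51 had their higher value in replicate 2. Without M1 replicate 1, 39 members were called higher and 11 lower, and without M1 replicate 2, 38 and 12.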

How the data were processed

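RNA was sequenced from 4 macrophage cultures, 2 polarized to M2 and 2 to M1. The authors deposited a table of raw gene counts (whole numbers, not normalized). The submitters' processing notes name Trimmomatic 0.36, STAR 2.5.2b and featureCounts of Subread 1.5.2 on GRCm38, as well as DESeq2. The authors' comparison table was not used, because its printed symbols did not match its rows. Counts were joined to GENCODE vM21 by gene ID, filtered with filterByExpr (minimum count 10, minimum total 15), scaled with TMM and tested with edgeR 4.0.16 (quasi-likelihood, robust) in R 4.3.3, over 14656 genes with Benjamini-Hochberg adjustment. A call needs an adjusted p under 0.05. The SE of a log2 fold change is its size divided by the root of F. TPM used merged exon lengths. Columns were mapped to samples by name, and replicate numbers follow accession order.

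The members and lists were chosen with earlier results of these data known. Named genes were, per class, up to 4 called genes each way by size of change with at least 5 CPM in 1 group, plus the 2 with the highest TPM; per further list, up to 3 each way. Values of further members were added where a comparison turned on them; values for 2 genes named by the rule are not reported here. Simulated counts with known changes in a small part of the genes and a common spread were run through the fit. Most genes were called in the real data, so this simulation cannot test the scaling. Its outcome is not reported here. Alternatives were RLE, upper-quartile and total-count scaling, no filter or 5 CPM in 2 libraries, DESeq2 1.42.0, limma-voom (limma 3.58.1), glmTreat beyond a log2 change of 1, and leaving out each library.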

Additional observations from a re-analysis of the deposited data

How the results depend on the processing

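Of 611 member fold changes recomputed under alternatives, 574 kept direction and side of the threshold, 25 lost their call, 4 gained one and 8 turned. Turned values under total-count scaling were 0.14 for Ctsz, 0.12 for Lgmn, 0.31 for Gla, 0.13 for Neu1, 0.14 for Lamp2 and 0.21 for Laptm4a. Gla was at 0.041 under upper-quartile scaling, and Grn ran from -0.018 to 0.16 with a library left out. Lower members numbered 6 under upper-quartile scaling, total counts and glmTreat, which tests for a change beyond 2-fold. By the same 3 alternatives lower cysteine proteases numbered 2, and lower glycosidases and membrane proteins 0. The glycosidase count ran from 1 to 2 and the membrane count from 1 to 2 with a library left out, and the membrane count was 1 without the filter on low counts. Grn was called higher (1 of 1) with total counts or upper quartiles, and its count ran from 0 to 1 with a library left out. With glmTreat, 4840 genes were called (2677 higher, 2163 lower), and higher calls numbered 0 for cystatins and thiol reductase, 4 for lipid genes, 3 for membrane proteins, 10 for further membrane proteins, 5 for sorting genes and 6 for regulators. Lower calls with glmTreat numbered 5 for further hydrolases, 1 for further membrane proteins, 2 for sorting genes and 0 for regulators. With total counts 3342 genes were lower, as were 2 sorting genes. Lower regulators numbered 2 under upper-quartile scaling, total counts and no filter, and 2 to 5 with a library left out. Higher further inhibitors numbered 2 under total counts and no filter, and 1 to 2 with a library left out. The log2 ratio of summed levels under total counts was 1.69 for all members, 1.49 for cysteine proteases, 2.59 for aspartic and serine proteases, 1.04 for cystatins and thiol reductase, 2.02 for glycosidases, 1.68 for sulfatases, 1.96 for lipid genes, 1.41 for membrane proteins and 0.52 for Grn. These shifts follow from the scaling alone. Ctse gave no value under the filter of 5 CPM. With 1 library left out, the lone library of a group was assumed to vary like the other group. No paired analysis was possible because the replicate numbers follow accession order and pair nothing. Depth limits Ctsw, Ctse and Ctsf, which rest on few counts.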
